A study of Mus musculus with 12 samples.

Results

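The prolonged response of DNMT3ABKO mouse ES cells to mTOR inhibition was described from 4 of the 12 libraries of the series, the 2 of untreated DNMT3ABKO cells (0 h) and the 2 of DNMT3ABKO cells kept for 144 h in INK128, an inhibitor of the mTOR kinase. The members were chosen by their labels alone, and all 4 libraries were used. DNMT3ABKO cells are knocked out for Dnmt3a and Dnmt3b, which methylate DNA de novo, an allele pair that the 0 h cells carry as well, so the comparison is of time in inhibitor within one knockout line. The labels put E14 before the name of this line and of the comparison line, KH, and give no genotype for KH. KH is read here as the wild-type KH2 line of the study's methods. Those methods grow the Dnmt3a/b knockout and KH2 cells on growth-arrested feeder cells and sort all cells before RNA extraction. The study describes its wild-type and Dnmt3a/b knockout time courses as both treated with the mTOR inhibitor. Total RNA was sequenced after depletion of ribosomal RNA. There was no untreated culture at 144 h, so time in culture and inhibitor cannot be told apart, and 1 line stands for the genotype. The labels do not say that the 2 replicates of a group are separate cultures, and the study says only in general that experiments were repeated independently, so p-values may measure a technical spread between these libraries.

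mTOR is a kinase that couples nutrients and growth factors to protein synthesis, and its inhibition holds mouse ES cells in a slowly dividing state that resembles the diapaused blastocyst. Dnmt3a and Dnmt3b place new methyl groups on CpG dinucleotides, with Dnmt3l as a cofactor without activity of its own, and Dnmt1 copies the marks at replication. Promoter methylation is known for holding germline genes silent in somatic and ES cells. A small share of ES cells at any time expresses genes of the 2-cell embryo, among them the Zscan4 cluster.

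The targeted genes were read first. Dnmt3a stood at 11.5 and 7.35 TPM (transcripts scaled for length, as shares of a fixed library total) in the 0 h libraries and at 21.9 and 16.9 TPM at 144 h, and the KH libraries at 0 h held 57.7 and 54.7 TPM. Dnmt3b stood at 26.2 and 27.5 TPM at 0 h and at 12.7 and 13 TPM at 144 h, with 255 and 258 TPM in KH cells at 0 h. Both genes were lower in every DNMT3ABKO library than in any KH library, and neither was at 0. A value for the whole gene does not show whether the deleted part is read. All 12 ES cell markers exceeded 1 TPM in each of the 4 libraries.

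The 2 libraries at 0 h differed from each other more than those of any other group. Their genes correlated at r = 0.985 on the log2(TPM + 1) scale, against 0.995 for the 144 h pair, and 207 genes differed by more than 1 between the 0 h libraries against 56 between the 144 h libraries. The transcripts of the 13 protein-coding genes of the mitochondrial genome summed to 6721 and 19052 TPM at 0 h and to 21238 and 24132 TPM at 144 h, so that 0 h replicate 1 stood apart. Gm26917, the gene with the highest value in the table, held 125306 and 75931 TPM at 0 h and 100297 and 93078 TPM at 144 h. Each change below was therefore set against both 0 h libraries.

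Of 54446 gene identifiers 15715 averaged 1 TPM or more across the 4 libraries and were tested. Of these, 6783 (43.2%) passed an adjusted p of 0.05 in limma on log2(TPM + 1), 3676 higher (23.4%) and 3107 lower (19.8%) at 144 h. The libraries of the 2 times did not overlap for 11686 genes (74.4%). Among the called genes 2485 changed by at least 1 on the log2 scale. For 1998 of these (12.7% of genes tested) the 144 h mean also lay at least 1 beyond the nearer 0 h library, 970 higher (6.17%) and 1028 lower (6.54%), and these are called changes beyond both 0 h libraries. The median change over all genes tested was 0.06. These shares over all genes (43.2% called, 23.4% higher, 19.8% lower) are the background of every list count below. A list count near them says nothing particular about its members. The level filter averages both times. A gene averaging under 1 TPM at 1 time passes only through the other, so the filter fixes the direction of its change in mean TPM. Without a single library the number of called genes ran from 4083 without 144 h replicate 2 and 4410 without 144 h replicate 1 to 10072 without 0 h replicate 2, which left 6190 higher and 3882 lower.

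**Figure D1:**
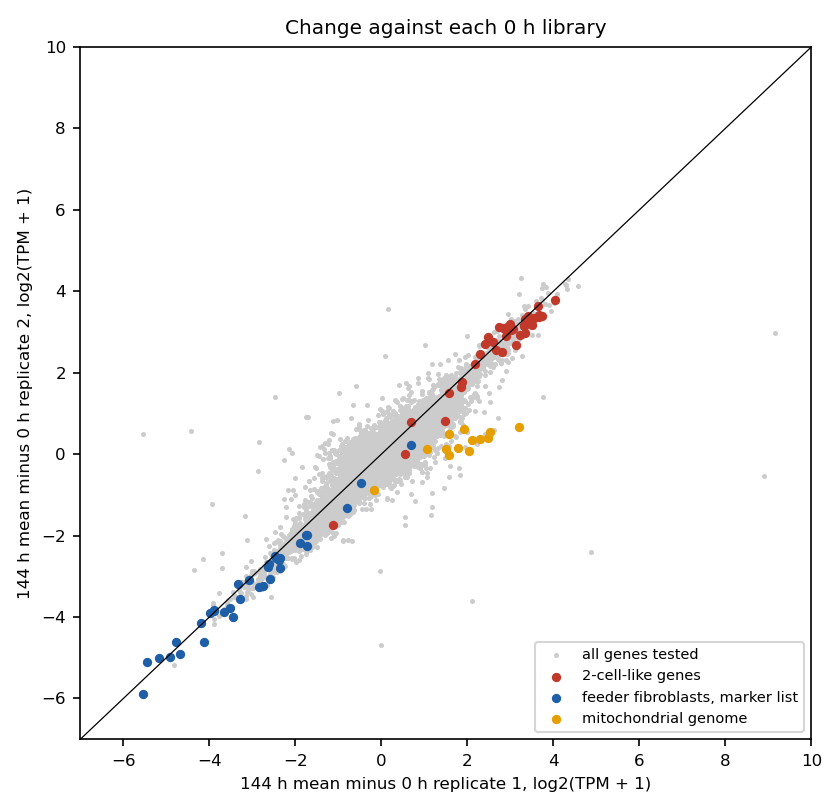
Change of the 144 h mean against 0 h replicate 1 (horizontal axis) and against 0 h replicate 2 (vertical axis), both as differences of log2(TPM + 1), with 1 point per gene tested. The members of the 2-cell and feeder fibroblast lists lie near the diagonal, where both 0 h libraries give the same change, and the genes of the mitochondrial genome lie mostly to its right, since 0 h replicate 1 was low for them.

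The gene with the largest fitted rise was one of those on which the 0 h libraries differed. Hist2h2aa1, a histone H2A gene, was listed at 0 in 0 h replicate 1, at 71.5 TPM in replicate 2 and at 521 and 630 TPM at 144 h, a change of 2.98 against the nearer library (adjusted p = 0.036). With a pseudocount of 0.1 TPM its adjusted p was 0.067. H1fx, a linker histone gene, was listed at 0 in 0 h replicate 1 and in both 144 h libraries and at 25 TPM in 0 h replicate 2. mt-Nd3, a subunit of respiratory complex I, stood at 69.2 and 408 TPM at 0 h and at 591 and 700 TPM at 144 h, which is 0.65 above the nearer library and not past the test (adjusted p = 0.081). The 0 h libraries also disagreed on mt-Nd2, at 129 and 543 TPM, and on mt-Tk, at 1.79 and 11.2 TPM. Of the 13 protein-coding genes of the mitochondrial genome 2 rose, mt-Co3 and mt-Nd4l, against 23.4% of all genes, and none lay 1 beyond both 0 h libraries. The number called was 7 without 0 h replicate 1, 12 without 0 h replicate 2, 12 without 144 h replicate 1 and 11 without 144 h replicate 2. With the replicate number as a block all 13 were called, and mt-Tk and H1fx passed as well. The ribosomal RNAs of the mitochondrion fell, mt-Rnr1 from 153 and 288 TPM to 53 and 95.6 TPM and mt-Rnr2 by 1.37 on the log2 scale (adjusted p = 0.018 and 0.012). Ribosomal RNA was depleted before sequencing, so these values may follow what depletion left in each library, which was not tested.

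Germline genes and genes of the 2-cell embryo were among the largest rises, and the windows printed here from before their start sites differ in CpG content. The 250 bases before the RefSeq start (GRCm38.p6) are printed 5′ to 3′ for 3 germline genes with many CpG sites, for Stra8 with few, for a Zscan4 and a Usp17l gene of the 2-cell list and for an X-linked Xlr gene. CpG dinucleotides, the sites that Dnmt3a and Dnmt3b methylate, are in capitals. Dazl, chr17:50293621-50293870, minus strand: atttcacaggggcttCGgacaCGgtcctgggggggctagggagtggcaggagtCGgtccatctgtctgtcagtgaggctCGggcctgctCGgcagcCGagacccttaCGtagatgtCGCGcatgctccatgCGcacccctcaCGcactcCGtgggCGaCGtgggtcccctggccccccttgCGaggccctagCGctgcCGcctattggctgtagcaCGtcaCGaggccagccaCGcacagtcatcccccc
Sycp1, chr3:102936101-102936350, minus strand: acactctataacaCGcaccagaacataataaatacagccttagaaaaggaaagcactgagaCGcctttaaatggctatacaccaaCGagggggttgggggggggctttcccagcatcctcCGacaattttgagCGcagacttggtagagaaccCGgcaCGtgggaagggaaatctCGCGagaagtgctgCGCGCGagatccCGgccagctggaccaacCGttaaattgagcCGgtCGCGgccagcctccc
Taf7l, chrX:134476491-134476740, minus strand: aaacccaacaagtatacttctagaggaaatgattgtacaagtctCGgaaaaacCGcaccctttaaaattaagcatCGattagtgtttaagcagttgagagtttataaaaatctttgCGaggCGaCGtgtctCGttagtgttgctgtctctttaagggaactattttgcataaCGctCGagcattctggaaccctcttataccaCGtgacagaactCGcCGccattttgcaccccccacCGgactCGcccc
Stra8, chr6:34920698-34920947, plus strand: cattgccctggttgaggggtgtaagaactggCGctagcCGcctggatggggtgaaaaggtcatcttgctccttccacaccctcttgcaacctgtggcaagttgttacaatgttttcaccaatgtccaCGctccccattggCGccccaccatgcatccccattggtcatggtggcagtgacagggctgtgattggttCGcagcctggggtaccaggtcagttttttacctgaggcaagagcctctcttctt
Zscan4d, chr7:11166149-11166398, minus strand: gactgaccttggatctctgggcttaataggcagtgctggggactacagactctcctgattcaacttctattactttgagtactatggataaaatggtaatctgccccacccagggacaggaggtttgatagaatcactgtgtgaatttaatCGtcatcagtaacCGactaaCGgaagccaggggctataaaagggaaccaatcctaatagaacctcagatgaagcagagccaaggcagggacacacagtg
Usp17lb, chr7:104842584-104842833, minus strand: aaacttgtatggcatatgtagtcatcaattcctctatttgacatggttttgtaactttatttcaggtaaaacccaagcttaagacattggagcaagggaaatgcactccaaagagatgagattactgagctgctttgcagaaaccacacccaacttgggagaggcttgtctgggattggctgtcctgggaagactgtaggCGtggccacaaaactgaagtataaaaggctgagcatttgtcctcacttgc
Xlr5c, chrX:73290516-73290765, minus strand: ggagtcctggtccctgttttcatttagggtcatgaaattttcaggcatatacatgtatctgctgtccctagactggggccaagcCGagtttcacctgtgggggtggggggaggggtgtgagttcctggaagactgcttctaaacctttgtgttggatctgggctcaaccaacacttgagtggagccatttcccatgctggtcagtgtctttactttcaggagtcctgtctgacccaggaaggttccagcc

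These windows hold 20 CpG sites in Dazl, 17 in Sycp1, 14 in Taf7l, 5 in Stra8, 3 in Zscan4d and 1 each in Usp17lb and Xlr5c. The Stra8 window lies inside the gene span of the expression values, since that span begins before the RefSeq start. The median was 6 over all 27025 promoters of the table, with the first listed start taken for each gene, and 16 over the 10137 of 15715 tested genes that had one. Over the 24 of 29 tested germline genes under promoter methylation that had a promoter in the table the median was 13, and over the 13 X-linked Xlr and Mage genes it was 6. The letters CACGTG, which read the same on both strands, occurred in 9 of those 24 germline promoters (37.5%) and in 4 of 17 promoters of meiosis genes (23.5%). They occurred in 872 of 10137 promoters of genes tested (8.60%) and in 1634 of all promoters (6.05%). Over all genes that rose beyond both 0 h libraries, 38 of 415 promoters held them (9.16%), near the share of genes tested, with a median of 9 CpG sites. Over those that fell beyond both, 41 of 720 did (5.69%), with a median of 11. In the printed windows CACGTG begins at position -94 of Sycp1 and at position -49 of Taf7l, counted back from the start site, and is absent from the other 5. Of the 2-cell list 19 of 38 tested genes had a promoter in the table, a smaller share than in the other lists, and no count over that list is given.

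Stra8, the retinoic acid-responsive gene that opens the meiotic programme, had the largest rise after Hist2h2aa1 among genes with a symbol other than a Gm number. It lies at chr6:34920163-34939344 (mm10), a span that begins before the printed window. Stra8 stood at 5.23 and 3.72 TPM at 0 h and at 81.7 and 86.1 TPM at 144 h, a change of 3.97 (SE 0.16, adjusted p = 5.3e-05). The 144 h mean lay 3.77 above the nearer 0 h library. Dazl, an RNA-binding protein of germ cells at chr17:50279395-50293636, rose from 7.04 and 12 TPM to 60.4 and 70.9 TPM, a change of 2.7 (SE 0.24, adjusted p = 4.8e-04). The 0 h libraries of Dazl differed more from each other than those of Stra8, and its change against the nearer one was 2.36. Sycp1, a filament protein of the synaptonemal complex, rose from 1.66 and 2.34 TPM to 11.6 and 12.8 TPM, by 2.14 (SE 0.16, adjusted p = 3.0e-04). At 72 h Sycp1 had already reached 10.7 and 9.25 TPM and Dazl 67.2 and 59.8 TPM, whereas Stra8 stood at 30.3 and 28.9 TPM, between its levels at 0 h and at 144 h.

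Of 40 genes of meiosis entry and synapsis, 21 passed the level filter, of which 12 rose, 2 fell and 7 did not pass the test, against 23.4% of all genes called higher and 19.8% called lower. The median over the 21 was 0.98, and 6 rose beyond both 0 h libraries, against 6.17% of all genes. Beside Stra8 and Sycp1 these were Meioc, a cofactor of meiotic prophase (1.17 and 1.53 TPM to 5.88 and 5.04 TPM), Majin, which anchors telomeres at the nuclear envelope (0.328 and 0.956 to 3.21 and 3.78 TPM), and the meiotic cohesins Smc1b and Stag3, which rose by 1.31 and 1.09. Sycp3, Dmc1 and Hormad1 rose by 1.01, 1.13 and 1.02 but stayed within 1 of the nearer 0 h library. Hormad2, which marks unsynapsed chromosome axes, went the other way, from 9.63 and 12.7 TPM to 2.11 and 2.90 TPM, a fall of 1.80 on the log2 scale (SE 0.19). The 15 members under the filter, among them Spo11 and Prdm9, were not tested.

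Of 38 germline genes known to be held by promoter methylation 29 were tested, of which 21 rose and 2 fell, with a median of 0.78, and 8 rose beyond both 0 h libraries. These 8 included Dazl, Sycp1, D1Pas1, an RNA helicase that rose by 1.92 from 8.53 and 9.0 TPM to 35.1 and 36.9 TPM, Tex19.1, which rose by 1.29, and Taf7l, a germ cell paralogue of a TFIID subunit, at 0.794 and 1.05 TPM against 3.68 and 4.04 TPM. Without 144 h replicate 2 the number called was 15 in place of 23. Dppa3 was the member that fell most. Dppa3, which guards methylation in the zygote and marks naive cells, stood at 94.8 and 101 TPM at 0 h and at 13.6 and 14.6 TPM at 144 h, a fall of 2.71 on the log2 scale (SE 0.11, adjusted p = 5.4e-05). It counts in the naive list as well. In the piRNA pathway 11 of 20 tested members rose and 2 fell, with a median of 0.54. Piwil4, a nuclear Piwi protein, rose by 1.43 from 0.456 and 0.388 TPM to 2.76 and 2.88 TPM, and Mael and Rnf17 rose by 1.31 and 1.21. Tdrd12 fell by 1.28 on the log2 scale, from 71.2 and 76.9 TPM to 28.2 and 31.9 TPM.

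**Figure D2:**
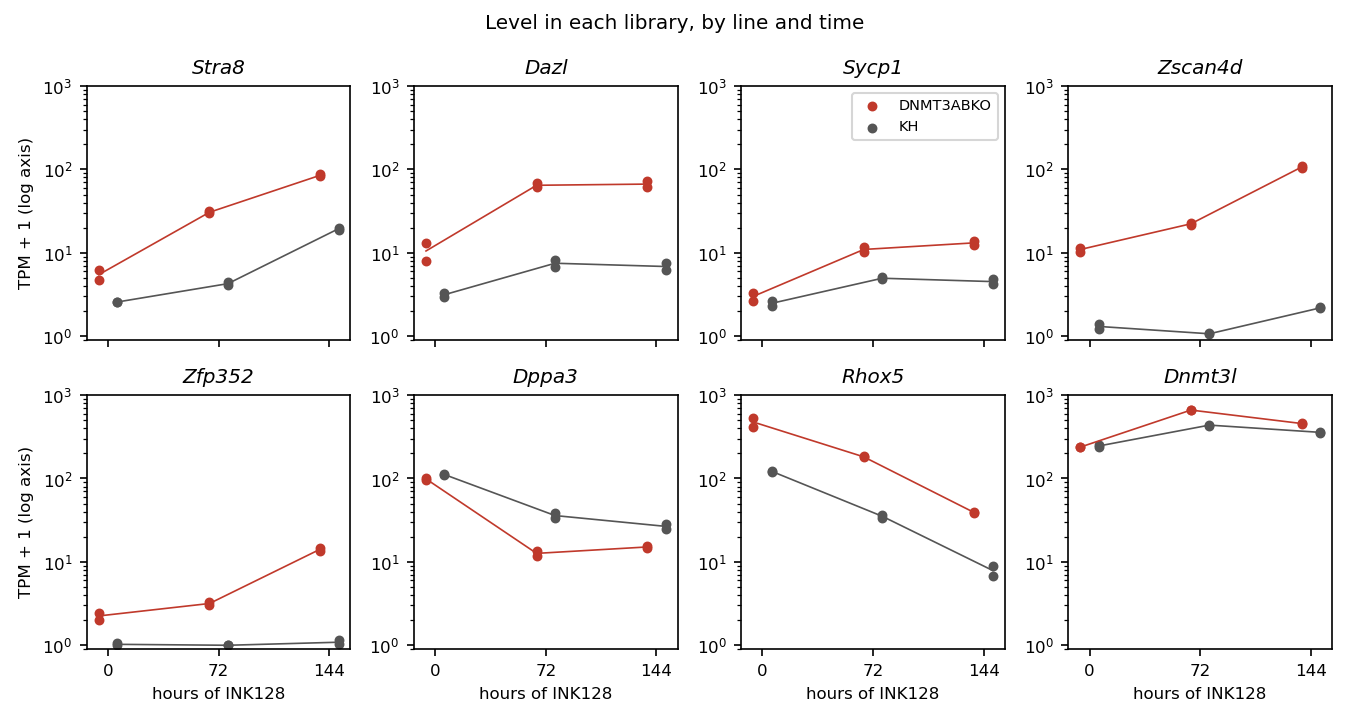
TPM + 1 on a log axis against hours of INK128 for 8 genes, with 1 point per library and lines through the group means, DNMT3ABKO in red and KH in grey (offset sideways for legibility). Stra8, Zscan4d and Zfp352 stood highest at 144 h in DNMT3ABKO cells, Dazl and Sycp1 at 72 h were near their 144 h level, and Dppa3 and Rhox5 fell in both lines.

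The list of 2-cell genes moved furthest upward. Of 43 members 38 were tested, 36 rose, 1 fell and 1 did not pass the test, and 34 rose beyond both 0 h libraries, against 6.17% of all genes. Of the 40 members with values, 27 and 25 reached 1 TPM in the 0 h libraries and all 40 in each 144 h library. Some were thus tested only through their 144 h level, and for those a higher 144 h mean follows from the filter. The values below cover all tested members. The median change of the 38 was 3.0, and the summed level of the list was 425 and 539 TPM at 0 h, 882 and 846 TPM at 72 h and 2059 and 2153 TPM at 144 h. The 2 groups did not overlap. Zscan4d, a zinc finger gene of the 2-cell embryo at chr7:11161374-11166159, stood at 9.34 and 10.6 TPM at 0 h and at 103 and 109 TPM at 144 h, a change of 3.28 (SE 0.12, adjusted p = 4.6e-05). Zscan4c, Zscan4e and Zscan4f, and the pseudogenes Zscan4-ps2 and Zscan4-ps3, rose by 3.45, 3.51, 3.57, 3.54 and 3.33. These copies are near-identical, and how reads were divided between them is uncertain, so their sum is the safer value. The 9 tested Zscan4 members and copies summed to 89.1 and 108 TPM at 0 h and to 1110 and 1161 TPM at 144 h. Usp17lb and Usp17lc, deubiquitinases that are likewise members of a repeated family, rose by 3.64 and 3.33.

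Members outside the Zscan4 and Usp17l families rose as well. Zfp352, a zinc finger gene, rose from 1.03 and 1.47 TPM to 12.6 and 13.7 TPM, by 2.66 (SE 0.16). Arg2, a mitochondrial arginase, rose by 2.60, Tmem92 by 3.03 and Sp110 by 3.09. Duxf3, the mouse Dux gene that switches on this set, stood at 0.612 and 0.460 TPM at 0 h and at 8.55 and 9.0 TPM at 144 h, a rise of 2.67. Dppa2 and Dppa4, which act upstream of Dux, rose by 1.15 and 0.74, within 1 of the nearer 0 h library. Usp26, an X-linked deubiquitinase, was the member that fell, from 25.4 and 39.7 TPM to 10.6 and 11.9 TPM. Slc47a1, a cation transporter outside this list, went from 0.262 and 0.314 TPM to 13.7 and 11 TPM, by 3.37 (SE 0.16).

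A block of chromosome 12 with many such rises was chosen after its values were seen. Between Gm18983 and Gm5039, chr12:87480108-88324026, 27 of 79 genes passed the filter, 16 of them annotated as protein-coding. All 27 rose beyond both 0 h libraries, by 1.32 to 4.35 with a median of 3.45. That count is partly set by the filter, which some members passed only through their 144 h level. Gm18617, for example, stood at 0 and 0.117 TPM at 0 h and at 2.11 and 2.18 TPM at 144 h. BB287469, a member of the 2-cell list in this block, rose from 1.61 and 2.10 TPM to 40.0 and 43.7 TPM, by 3.91 (SE 0.14). The block summed to 55.6 and 55.7 TPM at 0 h and to 984 and 1043 TPM at 144 h. Its members are copies of one another, so that reads shared between them could be counted in more than one. In all, 107 of 707 tested genes on chromosome 12 rose beyond both 0 h libraries, 15.1% against 6.17% over all chromosomes. Of the 107, 27 lie in this block and 35 between Meg3 and Mirg, a window described below. The share therefore does not describe the chromosome as a whole.

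Most of the 2-cell genes changed less in KH cells. In a fit over all 12 libraries, 30 of the 34 tested genes of the 2-cell list rose more in DNMT3ABKO than in KH cells by 144 h (adjusted p under 0.05 for the difference of the changes) against 4.89% of 15727 genes, where 3.7% had the opposite difference and 8.59% either one. Their median change was 3.05 in DNMT3ABKO and 0.23 in KH cells. The added 1 TPM shrinks changes at levels near or under 1 TPM, where Zscan4d lay in KH cells. KH changes there look smaller than the ratio of the levels. The 9 tested Zscan4 members and copies summed to a mean of 3.60 TPM in KH cells at 0 h and 13.3 TPM at 144 h. Zscan4d stood at 0.204 and 0.414 TPM in KH cells at 0 h and at 1.22 and 1.15 TPM at 144 h, and the changes differed by 2.54 (SE 0.15, adjusted p = 2.4e-06). All 24 tested genes of the chromosome 12 block also differed. In the 2-cell list and in this block, genes low in KH cells could pass the level filter through the DNMT3ABKO libraries alone. That block summed to a mean of 3.95 TPM in KH cells at 0 h and 13.9 TPM at 144 h. The starting levels differed too, and for Zscan4d and for the block DNMT3ABKO cells at 0 h already held more than KH cells at 144 h. Dazl, Sycp1 and Stra8 rose in both lines, and their changes were larger in DNMT3ABKO cells by 1.58, 1.27 and 1.05 (adjusted p = 0.0072, 0.0029 and 0.0040). Of the 26 germline genes compared, 8 rose more in DNMT3ABKO cells and 1, Dppa3, fell more (adjusted p = 0.024). The adjusted p for Dppa3 was 0.053 to 0.093 without either KH 0 h library, KH 144 h replicate 2 or either DNMT3ABKO 144 h library.

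Among X-linked families the Xlr and Mage genes rose while the highest Rhox genes fell. Of 31 Xlr and Mage genes 13 were tested, 10 rose and 3 did not pass the test, with a median of 1.04. In the list 8 and 9 genes reached 1 TPM in the 0 h libraries and 15 and 14 in the 144 h libraries. Xlr5c, of a lymphocyte-regulated family expressed in germ cells, stood at 0.974 and 0.633 TPM at 0 h and at 6.21 and 5.94 TPM at 144 h, a change of 1.98 (SE 0.16). Xlr5b rose by 1.69 and Xlr3c by 1.46. In KH cells the median change of this list was -0.00035. Of the 11 members compared, 8 rose more in DNMT3ABKO cells, against 4.89% of all genes, and these include Xlr5b and Xlr5c. Members could pass the level filter over 12 libraries through the DNMT3ABKO libraries alone. The list summed to 119 and 125 TPM there at 144 h, against 19.3 and 18.8 TPM in KH cells. The KH change was 3.8e-16 for Xlr5b and 5.6e-16 for Xlr5c, as for genes not detected at either time. No KH response can be read for these genes. Rhox5, a homeobox gene at chrX:37804842-37808876 that DNA methylation is known to hold silent, fell from 533 and 416 TPM to 37.7 and 38.1 TPM, by 3.60 on the log2 scale (SE 0.14, adjusted p = 4.7e-05). Rhox6 and Rhox9 fell by 3.79 and 3.81. Rhox13 and Rhox10 rose, from 0.796 and 0.641 TPM to 4.12 and 4.36 TPM and from 0.328 and 0.140 TPM to 2.15 and 1.62 TPM. Of 32 Rhox genes 14 were tested, 2 rose and 6 fell, and the summed level of the cluster went from 684 and 544 TPM to 70.7 and 72.3 TPM. Rhox5 fell in KH cells as well, from 122 and 120 TPM to 7.95 and 5.79 TPM, and the changes of the 2 lines differed by 0.37 (SE 0.19, adjusted p = 0.29).

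Imprinted genes moved in both directions. Of 56, 48 were tested, 17 rose and 12 fell, with a median of 0.13 that was -0.05 without 0 h replicate 1. In all 60.4% were called, against 43.2% of all genes. Beyond both 0 h libraries 5 rose and 3 fell, against 6.17% and 6.54% of all genes. The maternally expressed RNAs of the Dlk1-Dio3 domain rose together. Mirg, a host transcript of miRNAs, went from 23.7 and 26.7 TPM to 96.1 and 101 TPM, by 1.93 (SE 0.11), Meg3 from 107 and 104 TPM to 226 and 223 TPM, by 1.08, and Rian by 1.08. Sfmbt2, a Polycomb-related gene expressed from the paternal allele in the trophoblast lineage, fell by 3.23 on the log2 scale, from 27.1 and 35.8 TPM to 2.24 and 2.64 TPM. The neighbours H19 and Igf2 fell by 1.85 and 1.57. Peg10, a retrotransposon-derived placental gene, rose by 0.94 (SE 0.16) from 26.3 and 36.0 TPM to 60.2 TPM in both 144 h libraries, with 123 and 122 TPM at 72 h, and its change was larger than in KH cells by 1.16 (adjusted p = 0.0031).

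Between Meg3 and Mirg, chr12:109541001-109749460, 69 loci passed the filter, 54 rose, 15 did not pass the test and 35 rose beyond both 0 h libraries, with a median of 1.23. In KH cells the median was 1.19, and the change differed between the lines for 3 of the 69, against 8.59% of all genes. The window holds 47 tested miRNA loci, of which 34 rose and 22 did so beyond both 0 h libraries. Their TPM values cover the hairpin locus within a longer transcript and say nothing of the mature miRNA. Mir433 had the largest change, from 2.14 and 1.99 TPM to 11.6 and 16.9 TPM, by 2.29 (SE 0.20, adjusted p = 4.4e-04). Mir667 and Mir494 rose by 1.90 and 1.86, and Mir379 and Mir1193 by 1.61 and 1.64. Mature sequences of these loci from RefSeq are printed with the seed, bases 2 to 8, in capitals. The 5p arms of Mir379 and Mir1193 share their seed, which sets which transcripts a miRNA can pair with. mmu-miR-379-5p: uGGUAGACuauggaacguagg
mmu-miR-1193-5p: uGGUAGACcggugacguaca
mmu-miR-433-3p: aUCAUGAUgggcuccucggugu
mmu-miR-494-3p: uGAAACAUacacgggaaaccuc
mmu-miR-667-3p: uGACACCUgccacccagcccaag

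Of the DNA methylation machinery 20 of 21 genes were tested, 7 rose and 5 fell, with a median of 0.14, and the number called was 7 without 144 h replicate 2. Dnmt3l stood at 236 and 238 TPM at 0 h and at 456 and 454 TPM at 144 h, a rise of 0.94 (SE 0.10, adjusted p = 8.2e-04), and had been at 662 and 658 TPM at 72 h. The rise was larger than in KH cells by 0.40 (adjusted p = 0.011, and 0.058 without KH 144 h replicate 1). Dnmt1 was at 116 and 119 TPM at 0 h and at 124 and 126 TPM at 144 h and did not pass the test (change 0.09, adjusted p = 0.49). Transcripts of the targeted Dnmt3b fell by 1.01 on the log2 scale and those of Dnmt3a rose by 0.98. Tet1 and Tet2, which oxidise methylated cytosine, rose by 0.95 and 1.13. Dnmt3c, at most 0.452 TPM, was under the filter. Of 26 silencing factors of retroelements and imprints 10 rose and 3 fell, 50% called against 43.2% of all genes. Zfp57, which keeps imprints methylated, rose from 142 and 180 TPM to 401 and 447 TPM, by 1.40 (SE 0.14), and Resf1 and Zfp809 rose by 1.20 and 1.00. In that list 7 were called without either 144 h library in place of 13. Of 17 genes of the PRC1.6 complex and other germline repressors 3 rose and 3 fell, and 2 and 1 were called without 144 h replicates 1 and 2, 10 and 12 without 0 h replicates 1 and 2.

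Of 18 naive genes 12 rose and 1, Dppa3, fell, with a median of 0.63, against 23.4% of all genes called higher and 19.8% called lower. The 12 ES cell markers summed to 4785 and 4909 TPM at 0 h and 7434 and 7379 TPM at 144 h. The fibroblast markers described below went from 5568 and 6080 TPM to 810 and 786 TPM. Values are shares, and the part of this shift in the rises here was not tested. Gbx2, a target of LIF signalling, rose from 10.5 and 10.8 TPM to 37.8 and 39.1 TPM, by 1.76 (SE 0.11), Klf4 from 59.2 and 80.2 TPM to 148 and 158 TPM, by 1.14, and Esrrb by 0.73. Nanog stood at 227 and 301 TPM at 0 h and at 251 and 263 TPM at 144 h, inside the range of the 0 h libraries (adjusted p = 0.90). Without 0 h replicate 1 Nanog passed the test with a change of -0.23 (adjusted p = 0.024), and without 0 h replicate 2 the change was 0.18. Sox2 rose by 0.82, from 159 and 211 TPM to 310 and 337 TPM. Pou5f1, at 865 and 786 TPM at 0 h and above 1000 TPM at 144 h, rose by 0.34 (SE 0.11, adjusted p = 0.041), and the adjusted p was 0.37 and 0.28 without 144 h replicates 1 and 2. Tdgf1, a Nodal coreceptor, rose by 1.68 and the lincRNA Platr7 by 2.33. Of 21 genes of general pluripotency 13 rose and 2 fell, with 7 called without either 144 h library.

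Genes of later states divided. Of 26 formative and primed genes 9 rose and 11 fell, with a median of -0.07 that was 0.07 without 0 h replicate 2. Tcf15 rose from 25.1 and 25 TPM to 87.6 and 81.5 TPM, by 1.72 (SE 0.11), and Grhl2 and Sox3 by 1.49 and 1.30. Fgf5 and Fgf8, growth factors of the postimplantation epiblast, fell by 1.88 and 1.5 on the log2 scale. Of 15 early neural genes 8 rose and 4 fell. Sox1 went from 0.478 and 0.599 TPM to 4.54 and 4.95 TPM, a rise of 1.90 (SE 0.15), and Elavl3 rose by 1.38, while Gap43 fell by 1.63 on the log2 scale. Sox1 rose less than in KH cells, which reached 13.3 and 13.4 TPM (difference -1.35, SE 0.13, adjusted p = 1.0e-04). Pax6 stood at 6.84 and 10.1 TPM at 0 h and at 14.3 and 15.2 TPM at 144 h (0.75, SE 0.19, adjusted p = 0.022, and 0.078 without 144 h replicate 2), and its rise in KH cells was larger by 2.18 (adjusted p = 2.1e-04).

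Of 10 tested genes of the primitive streak, mesoderm and endoderm 2 rose and 6 fell. T, the mesoderm factor brachyury, fell from 6.22 and 6.59 TPM to 0.282 and 0.382 TPM, by 2.48 on the log2 scale (SE 0.14). Foxa1 and Sox17, endoderm factors, rose by 1.54 and 1.07 to at most 3.01 TPM. Of 13 primitive endoderm genes 3 rose and 9 fell, among them Col4a1, Col4a2 and Fst by 2.91, 3.16 and 2.59 on the log2 scale, genes that fibroblasts also express. Gata6 stayed near 1 TPM, at 0.815 and 1.28 TPM at 0 h and 0.996 and 0.990 TPM at 144 h. Of 17 trophoblast genes 3 rose and 9 fell, Tfap2c, Fgfr2 and Wnt7b by 1.80, 2.04 and 2.26 on the log2 scale, and Cdx2 was under the filter.

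Signalling genes changed in both directions. Of 22 genes of FGF and ERK feedback 13 rose and 7 fell, and 12 were called without either 144 h library. Spry4, an inhibitor of receptor tyrosine kinase signalling that ERK induces, rose from 35.3 and 42.2 TPM to 185 and 186 TPM, by 2.23 (SE 0.12). Spry2 and Dusp6 rose by 1.33 and 1.14. The receptors Fgfr1 and Fgfr2 fell by 1.5 and 2.04 on the log2 scale. In the list 8 members rose more, and 2 fell more or rose less, than in KH cells, against 4.89% and 3.7% of all genes. Of 21 genes of the LIF and STAT3 pathway 9 rose and 5 fell, with 8 and 7 called without 144 h replicates 1 and 2. With all 4 libraries 66.7% of that list was called, against 43.2% of all genes. Cntfr, the ligand-binding receptor of ciliary neurotrophic factor, rose from 2.10 and 3.53 TPM to 26.6 and 24.7 TPM, by 2.83 (SE 0.20), and Lif itself fell by 1.40 on the log2 scale. Of 17 Wnt and TCF targets 6 rose and 4 fell, with 6 called without either 144 h library. The Wnt list had 58.8% called against 43.2% of all genes, and its median change of 0.03 turned to -0.03 with median-ratio scaling. Axin2 and Notum, feedback inhibitors, rose by 0.99 and 1.05, and Lgr5 fell by 2.18 on the log2 scale.

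Most genes of sterol and amino acid synthesis fell. Of 22 genes of sterol synthesis 18 fell and 1 rose, with a median of -0.93. Fdps, which makes farnesyl diphosphate, stood at 153 and 167 TPM at 0 h and at 63.6 and 63.3 TPM at 144 h, a fall of 1.32 on the log2 scale (SE 0.10, adjusted p = 3.4e-04). Dhcr7 and Hsd17b7, later enzymes of the route, fell by 1.29 and 1.28, and Srebf1, the regulator of lipid synthesis, by 1.20. Apoe was among the 3 of 16 genes of sterol uptake and control that rose, while 9 fell, and 7 were called without 144 h replicate 2. The KH median for sterol synthesis was -0.50. Of the 22 genes 8 fell more in DNMT3ABKO cells, against 3.7% of all genes, Fdps with a difference of -0.47 (adjusted p = 0.011).

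Of 31 genes of fatty acid metabolism 6 rose and 13 fell, with 9 and 10 called without 144 h replicates 1 and 2. Fads2, a desaturase of polyunsaturated fatty acids, fell from 44.9 and 51.0 TPM to 4.48 and 5.18 TPM, by 3.07 on the log2 scale (SE 0.14), and the fall was larger than in KH cells by 1.61 (adjusted p = 1.2e-04). Scd1 and Scd2, which desaturate stearate, fell by 2.62 and 1.91. Of 34 targets of Atf4, the activator of amino acid synthesis, 24 fell and 1 rose, with a median of -0.84. Phgdh and Psat1, the first enzymes of serine synthesis, fell from 121 and 107 TPM to 25.6 and 24.3 TPM and from 216 and 249 TPM to 55.2 and 56.3 TPM, by 2.15 and 2.04 on the log2 scale. Nupr1, a stress-induced cofactor, went from 38.6 and 39.0 TPM to 2.79 and 1.96 TPM, a fall of 3.57.

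Of 34 glycolytic genes 16 fell and 4 rose, and 10 and 12 were called without 144 h replicates 1 and 2. The share of glycolytic genes called was 58.8%, against 43.2% of all genes. Ldha, lactate dehydrogenase, fell from 735 and 773 TPM to 254 and 257 TPM, by 1.56 on the log2 scale (SE 0.10), and Hk1 and Pfkm by 2.08 and 1.91, both more than in KH cells (by 0.74 and 1.41, adjusted p = 0.0041 and 8.7e-05). Of 75 nuclear genes of oxidative phosphorylation 28 fell and 1 rose (38.7% called), with a median of -0.27 and none beyond both 0 h libraries. Their count rested on the libraries, at 54 and 51 without 0 h replicates 1 and 2 and at 6 and 3 without 144 h replicates 1 and 2. Of 80 cytosolic ribosomal protein genes 13 rose and 1 fell, with a median of 0.17, against 33 and 47 called without 0 h replicates 1 and 2 and 2 and 1 without 144 h replicates 1 and 2. With all 4 libraries 17.5% of that list was called, under the 43.2% of all genes, and Rpl3 was among the majority not called (0.11, SE 0.11, adjusted p = 0.43). Ncl, the nucleolar protein nucleolin, was also not called (-0.07, adjusted p = 0.65), within a list of 64 genes of RNA polymerase I and ribosome assembly in which 7 rose and 3 fell (15.6% called). That list had 27 and 39 called without 0 h replicates 1 and 2, 0 by limma without either 144 h library (3 and 2 at an unadjusted p of 0.05 without replicates 1 and 2), and a median of 0.05 that was -0.01 with median-ratio scaling. These values are shares of the RNA sequenced and carry no information on the amount of RNA per cell. From spike-in scaled values the study reports that global transcription decreased in Dnmt3a/b knockout cells under mTOR inhibition.

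The mTOR pathway itself was mixed. Of 51 of its genes 12 rose and 10 fell, 43.1% called against 43.2% of all genes, with 36 called without 0 h replicate 2 and 7 and 6 without 144 h replicates 1 and 2. Pdcd4, an inhibitor of eIF4A that S6 kinase marks for degradation, rose from 21.0 and 24.3 TPM to 56.8 and 57.1 TPM, by 1.30 (SE 0.12). Castor1, an arginine sensor, and Ddit4, an inhibitor of mTORC1, fell by 2.16 and 1.75 on the log2 scale. Eif4ebp1, the translation repressor, stood at 102 and 128 TPM at 0 h and at 79.8 and 76.5 TPM at 144 h (-0.54, adjusted p = 0.022, and 0.090 and 0.14 without 144 h replicates 1 and 2). Sesn2, a leucine sensor, did not pass the test (-0.25, adjusted p = 0.12), but did so without 0 h replicate 1 (adjusted p = 0.0061). Of 45 translation factors 5 rose and 3 fell, 13 were called with the replicate number as a block, and 29 were called without either 0 h library and 3 without 144 h replicate 2. With all 4 libraries 17.8% of the translation factors were called, under the 43.2% of all genes, and Eif4g3 rose by 1.17.

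Of 41 lysosomal genes 10 rose and 16 fell, with a median of 0.0012 that was -0.18 without 0 h replicate 1, and 16 and 17 were called without 144 h replicates 1 and 2. The share of lysosomal genes called was 63.4%, against 43.2% of all genes. Ctsf, a cathepsin, and Mcoln1, a lysosomal calcium channel, rose by 1.57 and 1.09. Ctss, Ctsk and Gpnmb fell by 2.94, 2.51 and 2.23 on the log2 scale, genes that macrophages and connective tissue cells express strongly. Ctsd was at 265 and 298 TPM at 0 h and at 205 and 211 TPM at 144 h (-0.43, adjusted p = 0.021, and 0.23 and 0.18 without 144 h replicates 1 and 2). Of 43 autophagy genes 12 rose and 8 fell, 46.5% called against 43.2% of all genes, with 8 and 5 called without 144 h replicates 1 and 2. Calcoco2, a receptor that delivers bacteria and mitochondria to autophagosomes, fell from 80.7 and 89.9 TPM to 5.96 and 5.64 TPM, by 3.66 on the log2 scale (SE 0.12), and its relative Calcoco1 rose by 1.13. Sqstm1, the receptor p62, was not called (-0.08, adjusted p = 0.56).

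Cell cycle genes went in different directions. Of 54 mitotic genes 26 rose and 2 fell (51.9% called against 43.2% of all genes), with a median of 0.35 and none beyond both 0 h libraries. The number called was 47 without 0 h replicate 2 and 11 and 9 without 144 h replicates 1 and 2. Mki67, a proliferation marker, stood at 47.0 and 60.6 TPM at 0 h and at 86.1 and 87.6 TPM at 144 h (0.69, SE 0.14, adjusted p = 0.011). Values are shares, and the part of the falling fibroblast share, described below, in these mitotic rises was not tested. Of 52 replication genes 4 rose and 12 fell, with 27 and 32 called without 0 h replicates 1 and 2 and 3 without either 144 h library. With all 4 libraries 30.8% of the replication genes were called, under the share of all genes. Rrm2, which makes deoxynucleotides, fell from 241 and 288 TPM to 87.8 and 89.7 TPM, by 1.56 on the log2 scale, and Dut by 1.31. Mcm5, a subunit of the replicative helicase, was not called (-0.25, adjusted p = 0.081, and 0.0086 and 0.020 without 0 h replicates 1 and 2).

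Among 22 G1 cyclins and CDK inhibitors 4 rose and 9 fell, with 8 and 7 called without 144 h replicates 1 and 2. The share called in that list was 59.1%, against 43.2% of all genes. Cdkn1a, the inhibitor p21, fell from 108 and 115 TPM to 31.3 and 30.5 TPM, by 1.82 on the log2 scale (SE 0.10). Cdkn2b and Cdkn2a fell by 2.16 and 1.51, and the cyclins Ccnd1 and Ccnd2 by 1.5 and 1.34. Cdkn1b, the inhibitor p27, rose by 0.44 (adjusted p = 0.037, and 0.24 and 0.37 without 144 h replicates 1 and 2). Of 30 p53 targets 5 rose and 12 fell, with 11 called without 144 h replicate 2. With all 4 libraries 56.7% of the p53 targets were called. Pmaip1, the pro-apoptotic Noxa, rose from 28.9 and 30.1 TPM to 85.9 and 91.3 TPM, by 1.55, and by 0.92 more than in KH cells (adjusted p = 1.4e-04). In the Myc family, where 5 of 15 genes rose and 2 fell (46.7% called), Myc rose by 1.14 (SE 0.11), from 38.2 and 35.4 TPM to 82.1 and 82.7 TPM. Mycn went from 139 TPM in both 0 h libraries to 92.7 and 91.5 TPM (-0.59, adjusted p = 0.0050, and 0.068 and 0.082 without 144 h replicates 1 and 2). The number called in that list was 13 without 0 h replicate 2 and 4 without either 144 h library.

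**Figure D3:**
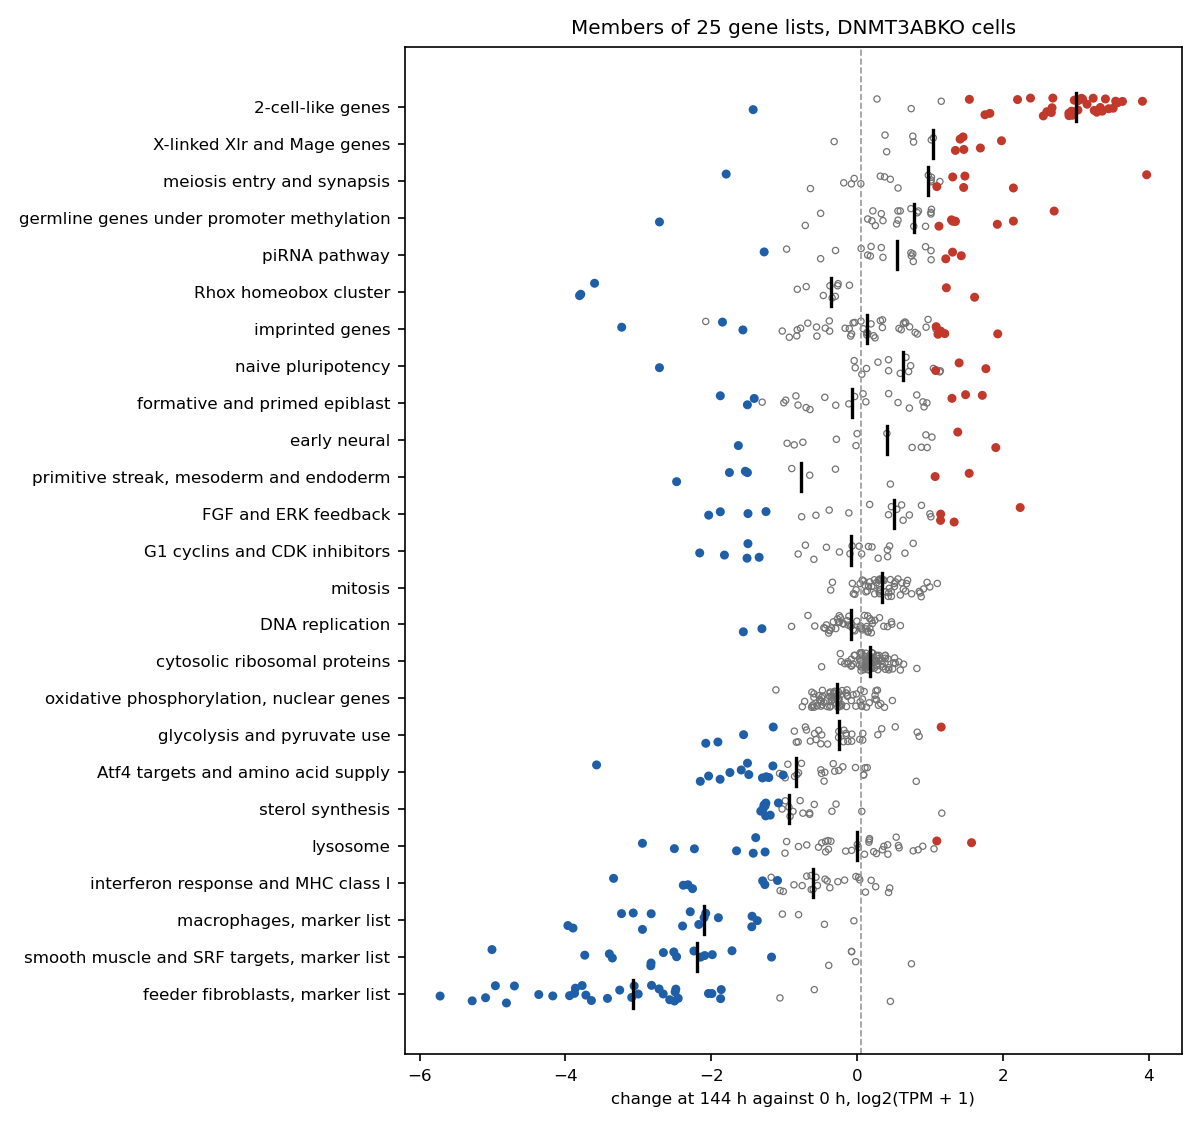
Change at 144 h against 0 h in DNMT3ABKO cells, as a difference of log2(TPM + 1), for every tested member of 25 lists. Filled points are called changes at least 1 beyond the nearer 0 h library (red higher, blue lower), open points are other members, black bars are list medians and the dashed line is the median of all genes (0.06). The 2-cell list lies furthest to the right and the feeder fibroblast markers furthest to the left.

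The largest falls were genes of cells other than ES cells. Of 36 fibroblast markers 34 were tested and 33 fell, 31 beyond both 0 h libraries, with a median of -3.07. Ly6a, a surface antigen of stromal cells, fell from 65.4 and 84.3 TPM to 0.220 and 0.673 TPM, by 5.72 on the log2 scale (SE 0.21), and the collagen Col1a1 from 495 and 384 TPM to 10.7 and 9.85 TPM, by 5.28 (SE 0.15). Col3a1, S100a4, Col6a3 and Col1a2 fell by 5.10, 4.96, 4.81 and 4.70, and Postn, Col6a1, Tnc and Col5a1 by 3.94 to 4.37. The summed level of the list was 5568 and 6080 TPM at 0 h, 2075 and 1934 TPM at 72 h and 810 and 786 TPM at 144 h. The 2 times did not overlap. Of 36 markers 1 was at 0 in each 144 h library, and 32 and 30 remained at 1 TPM or more. In bulk RNA, fewer cells of a type and less RNA per cell cannot be told apart.

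Smooth muscle and macrophage markers moved the same way. Of 20 smooth muscle markers and SRF targets 16 fell and 1 rose, with a median of -2.19. Actg2 and Acta2, actins of smooth muscle, fell by 5.01 and 3.73 on the log2 scale, Acta2 from 494 and 567 TPM to 40.0 and 37.6 TPM, and Tagln by 3.40. Their sum was 2676 and 2864 TPM at 0 h and 900 and 896 TPM at 144 h. Of 25 macrophage markers 19 were tested and 17 fell, with sums of 330 and 367 TPM at 0 h and 65.6 and 62.1 TPM at 144 h. Lyz2, a lysozyme of myeloid cells, fell from 146 and 164 TPM to 8.85 and 9.05 TPM, by 3.97 on the log2 scale (SE 0.11), and C1qa and C1qc by 3.90 and 3.23. The 12 ES cell markers summed to 4785 and 4909 TPM at 0 h and to 7434 and 7379 TPM at 144 h. The part of these other cells in falls outside the marker lists, such as those of Cdkn2a and Calcoco2, was not tested. Nor was the part of their lower share in the rises of ES cell genes, such as those of Sox2 and Esrrb.

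**Figure D4:**
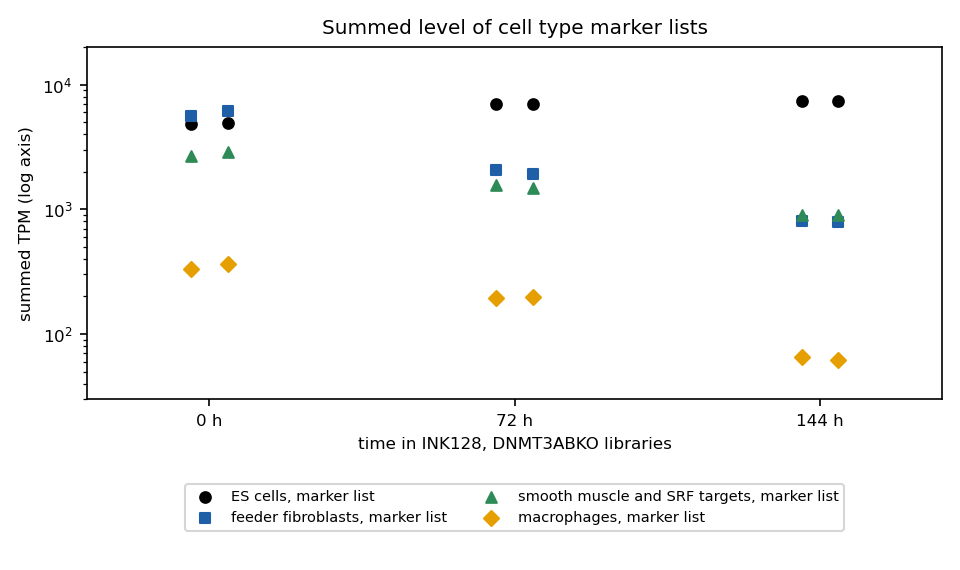
Summed TPM (log axis) of 4 marker lists in the 6 DNMT3ABKO libraries at 0, 72 and 144 h, with 1 symbol per library. The fibroblast, smooth muscle and macrophage sums are lower in both 144 h libraries than in both 0 h libraries and the ES cell sum is higher.

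Of 31 tested genes of the interferon response and MHC class I 18 fell and 13 did not pass the test, with a median of -0.60. B2m, the light chain of MHC class I, fell from 52.1 and 82.6 TPM to 12.3 TPM in both 144 h libraries, by 2.32 on the log2 scale (SE 0.22), and Ifi27 and Isg15 by 3.34 and 2.38. The heavy chain gene H2-K1 was at 24.9 and 26.9 TPM at 0 h and 29.3 and 30.2 TPM at 144 h and was not called (adjusted p = 0.22, and 0.035 without 0 h replicate 2). Of 39 Hox genes 7 were tested, of which 5 fell, Hoxc6 and Hoxc8 by 2.12 and 2.09, and 2 rose.

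In KH cells 8070 of 15727 genes were called at 144 h (51.3%), in the fit over all 12 libraries. With all 12 libraries in the fit 9233 of 15715 genes were called in DNMT3ABKO cells, so the count of 6783 from 4 libraries is not comparable. The change from 0 h to 144 h differed between the lines for 1351 genes, 769 with a larger rise or smaller fall in DNMT3ABKO cells and 582 with the opposite. The number was 785 to 1974 when a library other than DNMT3ABKO 0 h replicate 2 was left out and 3599 without that one, of which 2591 were toward DNMT3ABKO. Without DNMT3ABKO 0 h replicate 1 the balance turned, with 800 genes toward DNMT3ABKO and 1174 toward KH cells. The 3 lists of other cell types fell in both lines, with a median of -3.07 in DNMT3ABKO and -3.16 in KH cells for fibroblast markers. Macrophage markers fell less in DNMT3ABKO cells for 8 of 19 genes, against 4.89% of all genes with a difference in that direction. Among the 8 was Lyz2, by 1.23 (adjusted p = 5.9e-05). Medians of the lines set side by side come from that fit.

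**Figure D5:**
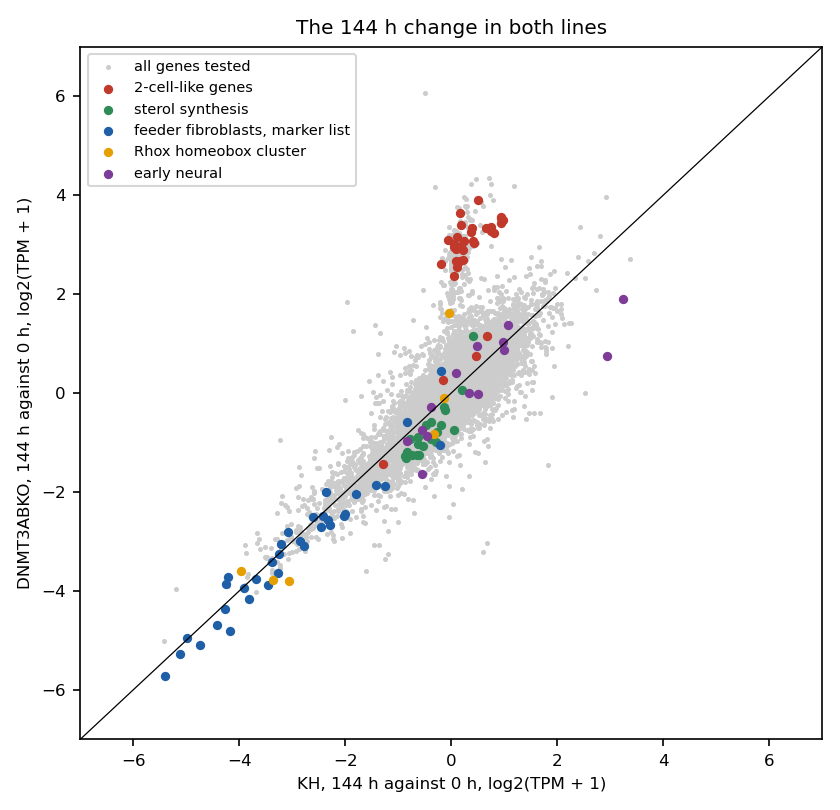
Change from 0 h to 144 h in KH cells (horizontal axis) and DNMT3ABKO cells (vertical axis), as differences of log2(TPM + 1), for each gene tested over the 12 libraries. Fibroblast markers lie along the diagonal, most 2-cell genes lie above it near 0 on the KH axis, sterol synthesis genes lie mostly below it, and Sox1 and Pax6 are the early neural genes furthest below it.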

How the data were processed

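Gene-level TPM values, 1 table for each of 12 libraries (2 in each of 6 groups), were deposited by the authors. Per the submitters' processing notes, reads were trimmed with cutadapt 2.4, aligned to mm10 with STAR 2.7.3a and quantified with StringTie 2.0, and the study's methods name GENCODE VM19. TPM is scaled to the transcript length and to a fixed total for each library, so values are shares, the depth is unknown, and spike-in rows were not used here. Groups were taken from the labels. Rows that repeat a gene identifier were summed, genes averaging 1 TPM or more across the 4 libraries were kept, and log2(TPM + 1) was fitted with limma 3.58.1 (R 4.3.3, mean-variance trend, Benjamini-Hochberg adjustment). The difference between the lines was a contrast over all 12 libraries. A call needed an adjusted p below 0.05. Standard errors are of log2 changes.

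Members and lists were chosen with earlier results of these data known, so the lists are described by counts and medians, without a test. Genes named are a fixed core, the 12 largest rises and falls, and the largest changes within each list, leaving out Gm and Rik names, with exceptions stated where they occur, and some of these genes are not reported here. The study states in general that the time points of a biological replicate were processed in parallel, but not that the label numbers mark those replicates, and the fit without the block was kept. Changes were also set against each 0 h library. Alternatives were a pseudocount of 0.1 TPM, no level filter, median-ratio and protein-coding scaling, all 12 libraries in the fit, the replicate number as a block, and leaving out each library. Promoter and miRNA sequences came from RefSeq tables. Python 3.11.15, pandas 2.3.3 and matplotlib 3.10.9 were used for summaries and plots.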

Additional observations from a re-analysis of the deposited data

Results flagged for a closer look

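The 144 h change differed between DNMT3ABKO and KH cells for 1351 genes by limma's test of the difference, and 56 of the genes named by rule and reported here were among them. Values below are the DNMT3ABKO change minus the KH change on log2(TPM + 1), from 2 libraries in each group, and no explanation was weighed. The added 1 TPM shrinks the KH change where KH levels are near or under 1 TPM, as for Zscan4d. Xlr5b and Xlr5c had no readable KH change. Of the 56, 19 lost their call under at least 1 alternative, 15 of them with only the 4 groups in the fit. With the replicate number as a block the adjusted p was 0.068 for H19, 0.086 for Mcm5, 0.059 for Castor1, 0.065 for Srebf1, 0.055 for Dut, 0.072 for Tfap2c and 0.072 for Acta2. With a pseudocount of 0.1 TPM it was 0.53 for Fgf5.

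Among 2-cell genes the differences were Usp17lb 3.47, BB287469 3.41, Usp17lc 2.94, Zscan4-ps3 2.67, Zscan4f 2.62, Zscan4-ps2 2.60, Zfp352 2.58, Zscan4d 2.54, Zscan4e 2.53 and Zscan4c 2.51. In germline and X-linked families they were Xlr5c 1.98, Xlr5b 1.69, Xlr3c 1.62, Dazl 1.58, Sycp1 1.27, Stra8 1.05, Hormad2 -0.92, Rhox9 -0.74, Dppa3 -0.64 and Tdrd12 -0.62. Of the lineage and signalling genes, Fgf8 1.37, Peg10 1.16, Fgf5 1.01, Wnt7b 0.88, Spry4 0.67, Tdgf1 0.61 and Dnmt3l 0.40 were toward DNMT3ABKO cells, and Pax6 -2.18, Sox1 -1.35, Fgfr2 -1.14, Gap43 -1.09, Tfap2c -0.67 and H19 -0.66 toward KH cells. Metabolic genes differed as Fads2 -1.61, Pfkm -1.41, Scd1 -0.95, Scd2 -0.89, Hk1 -0.74, Srebf1 -0.59, Castor1 -0.50 and Fdps -0.47. For cell cycle, growth and stress genes the values were Rrm2 -0.80, Mycn -0.73, Ccnd1 -0.66, Dut -0.57, Mcm5 -0.33, Myc 0.49, Sqstm1 0.55, Eif4g3 0.61 and Pmaip1 0.92. Markers of other cells and immune genes gave Lyz2 1.23, Gpnmb 0.99, C1qc 0.64, Acta2 0.53 and H2-K1 0.52, and the transporter Slc47a1 gave 0.93.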

How the results depend on the processing

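The number of genes called in DNMT3ABKO cells was 2485 (1242 higher, 1243 lower) with an absolute log2 change of at least 1, and it stayed within 1.5 times of 6783 with the other pseudocount, no filter, either scaling, all 12 libraries in the fit (9233) and the replicate block. Leaving out each library gave 4083 to 10072 calls, 2101 to 6190 higher and 1982 to 4639 lower. The share of calls that were higher was 54.2% in all, 47.9% without 0 h replicate 1 and 61.5% without 0 h replicate 2. The difference between the lines was called for 1351 genes, for 2099 (1443 higher) with no filter, 2169 (1174 higher, 995 lower) with median-ratio scaling and 757 (504 higher, 253 lower) with only the 4 groups in the fit. Leaving out each library gave 785 to 3599 of these calls, 507 to 2591 higher and 277 to 1174 lower. The higher share of these was 56.9%, 68.7% with no filter, 66.6% with only the 4 groups, 40.5% without DNMT3ABKO 0 h replicate 1 and 72.0% without DNMT3ABKO 0 h replicate 2. With the replicate number as a block 8333 genes were called in DNMT3ABKO cells and 1041 for the difference. Deviations of same-numbered libraries at 0 h and 144 h correlated at 0.098 in DNMT3ABKO and 0.084 in KH cells, which did not settle whether the numbers pair the libraries. The block ended 7 of the named differences between the lines and no named change. Of the genes named, 4 that were not called changed sign without a library. Without each library in turn Gata6 ranged from -0.20 to 0.13, Nanog from -0.23 to 0.18, Ncl from -0.14 to 0.0093 and mt-Tk from -0.33 to 1.81. The causes of these shifts were not tested. Depth is unknown from TPM, and 2 libraries in each group limit the precision.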

Other observations

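The classes of genes below were chosen after their values were seen. Of 339 tested lincRNAs 172 rose and 37 fell at 144 h in DNMT3ABKO cells, with a median of 0.57, and of 180 antisense genes 81 rose and 8 fell. Of 156 unprocessed pseudogenes 109 rose and 7 fell, with a median of 1.10, whereas 2784 protein-coding genes rose and 2808 fell of 12566. Antisense and pseudogene values can hold reads of a partner or parent gene. Processed pseudogenes on chromosome 6 were among the largest rises, Gm8038 by 4.32 and Gm4782 by 4.22 on the log2(TPM + 1) scale.

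All 11 tested genes of the Y chromosome were higher in the 144 h mean, and 10 passed the test, 4 of them beyond both 0 h libraries. Their summed level was 941 and 872 TPM at 0 h and 1606 and 1685 TPM at 144 h in DNMT3ABKO cells. Most of that sum came from Gm47283, at 660 and 584 TPM at 0 h and 1105 and 1153 TPM at 144 h, so it says little of the other genes. Ddx3y, for example, stood at 14.7 and 16.5 TPM at 0 h and 39.8 and 43.4 TPM at 144 h. The change was larger than in KH cells for 4 of the 11, against 4.89% of all genes.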
